A study of Drosophila melanogaster with 2 samples.

Results

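Weak distal regions are ChIP-seq regions of the Drosophila transcription factor daughterless (da) that lay just below the authors' cut-off, were found in both replicates and lay away from promoters. They numbered 457 of the 30000 regions in the pooled dm6 list. The regions were chosen by their signal rank, so rank and signal describe them and support nothing. The pooled list was ranked by peak signal, and the ranks from the first below the authors' thresholded list down to 5000 were taken. A region was kept if each replicate's own list had, among its 5000 highest, a summit no more than 200 bp from the pooled summit. It also had to lie more than 500 bp from every protein-coding transcription start site (TSS). Of the 3059 regions in the rank band, 1855 had a match in replicate 2 and 1914 in replicate 3, and 920 (30.1%) had both. Of these 920, 463 lay within 500 bp of a TSS, which left the 457.

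The study had 1 group, da-GFP whole embryos, of 2 biological replicates that the labels number 2 and 3. The embryos came from a transgenic D. melanogaster line that stably expresses da with green fluorescent protein (GFP) at its C-terminal end. The labels give both sexes mixed and an age of 0 to 24 h, and chromatin sheared to 200 to 800 bp was precipitated with an anti-GFP antibody. There was no second condition, so regions were set against positions and other regions of the same genome. A whole-embryo pool over 24 h mixes all cell types and stages, so binding in few cells and weak binding in many cells cannot be told apart. The deposited lists hold no read counts, and the depth of the replicates is unknown.

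Daughterless belongs to the basic helix-loop-helix (bHLH) family and is the fly counterpart of the mammalian E proteins. It binds DNA as a dimer, with itself or with tissue-specific bHLH proteins such as those of the achaete-scute complex, at E-boxes with the sequence CANNTG. It is known for its part in sex determination, neural precursor formation, oogenesis and the development of muscle and gut. The HLH protein encoded by emc, which lacks a basic region, forms dimers that do not bind DNA.

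Among the 10 forms of the E-box, the palindrome CAGCTG set these summits apart from the DNA beside them, so 9 windows that carried it 2 or 3 times are shown first. Each runs 100 bp to either side of a summit on the plus strand, from the RefSeq Release 6 assembly in dm6 coordinates, with CAGCTG in capitals. The kek5 and Mnt windows held 3 copies and the others 2. In kek5, which encodes a transmembrane protein with leucine-rich repeats, 2 of the copies directly abut. Mnt encodes a bHLH-zipper repressor that pairs with Max, CycG a cyclin, sob a zinc finger protein of the odd-skipped family and Oatp74D an importer of ecdysone. The windows in kek5, Mnt, CycG, Oatp74D and hng3 were intronic, those named after Taf3 and sob were intergenic with that gene's TSS as the nearest, and those in toc and sba were in coding exons. They are:
kek5, chrX:19432247-19432447: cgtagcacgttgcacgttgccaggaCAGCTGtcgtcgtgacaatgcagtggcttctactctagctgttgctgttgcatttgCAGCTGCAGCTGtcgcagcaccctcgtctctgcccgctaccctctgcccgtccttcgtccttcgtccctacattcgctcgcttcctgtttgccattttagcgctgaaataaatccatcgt
Mnt, chrX:3692494-3692694: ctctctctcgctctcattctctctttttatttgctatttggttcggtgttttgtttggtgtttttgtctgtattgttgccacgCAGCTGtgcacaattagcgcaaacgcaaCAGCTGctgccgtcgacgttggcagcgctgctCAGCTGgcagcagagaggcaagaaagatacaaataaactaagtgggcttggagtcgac
CycG, chr3R:31607477-31607677: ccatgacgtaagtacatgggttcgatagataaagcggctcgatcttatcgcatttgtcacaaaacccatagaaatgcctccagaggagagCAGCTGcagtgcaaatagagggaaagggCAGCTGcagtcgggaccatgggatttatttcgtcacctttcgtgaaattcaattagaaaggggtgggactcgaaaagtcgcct
Oatp74D, chr3L:17496302-17496502: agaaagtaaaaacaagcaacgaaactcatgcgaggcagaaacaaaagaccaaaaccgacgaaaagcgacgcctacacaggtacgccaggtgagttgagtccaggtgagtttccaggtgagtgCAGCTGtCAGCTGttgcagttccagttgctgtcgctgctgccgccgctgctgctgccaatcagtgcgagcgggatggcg
hng3, chr3L:743324-743524: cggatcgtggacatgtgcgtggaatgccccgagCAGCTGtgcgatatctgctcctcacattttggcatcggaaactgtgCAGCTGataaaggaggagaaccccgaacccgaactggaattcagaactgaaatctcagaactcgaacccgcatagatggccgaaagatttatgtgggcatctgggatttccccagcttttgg
Taf3, chr4:458599-458799: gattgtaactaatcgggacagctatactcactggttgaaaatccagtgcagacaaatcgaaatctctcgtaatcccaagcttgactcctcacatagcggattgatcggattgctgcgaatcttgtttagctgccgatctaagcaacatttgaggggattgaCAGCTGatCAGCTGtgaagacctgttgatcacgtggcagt
sob, chr2L:3587946-3588146: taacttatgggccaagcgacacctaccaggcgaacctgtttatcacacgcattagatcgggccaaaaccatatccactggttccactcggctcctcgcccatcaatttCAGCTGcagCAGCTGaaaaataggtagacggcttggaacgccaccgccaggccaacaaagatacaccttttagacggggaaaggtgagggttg
toc, chr2L:3124767-3124967: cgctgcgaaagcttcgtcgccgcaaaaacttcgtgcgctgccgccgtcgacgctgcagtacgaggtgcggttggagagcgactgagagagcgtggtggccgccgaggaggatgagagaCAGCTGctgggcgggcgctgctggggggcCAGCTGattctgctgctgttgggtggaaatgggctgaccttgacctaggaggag
sba, chr3R:23903169-23903369: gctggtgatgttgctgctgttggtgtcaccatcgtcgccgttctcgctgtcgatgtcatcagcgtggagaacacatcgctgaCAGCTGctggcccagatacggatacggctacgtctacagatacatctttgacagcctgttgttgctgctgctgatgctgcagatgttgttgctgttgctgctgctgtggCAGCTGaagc

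Windows with more than 1 copy were the exception. Within 100 bp of the summit, 84 regions held CAGCTG: 70 held 1 copy, 12 held 2 and 2 held 3. Windows of 50 bp to either side with 1 copy included introns of tara, which encodes a transcriptional co-regulator, of Dad, an inhibitory Smad, of stumps, an adaptor of the fibroblast growth factor receptors, and of Pka-C1, a catalytic subunit of protein kinase A:
tara, chr3R:16247055-16247155: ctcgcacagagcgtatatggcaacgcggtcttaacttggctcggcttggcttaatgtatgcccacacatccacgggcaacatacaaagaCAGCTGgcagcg
Dad, chr3R:17056754-17056854: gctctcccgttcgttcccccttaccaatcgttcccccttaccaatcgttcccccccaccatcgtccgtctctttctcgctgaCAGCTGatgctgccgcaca
stumps, chr3R:14597519-14597619: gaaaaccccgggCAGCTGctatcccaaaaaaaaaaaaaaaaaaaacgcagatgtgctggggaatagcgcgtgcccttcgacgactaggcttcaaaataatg
Pka-C1, chr2L:9698558-9698658: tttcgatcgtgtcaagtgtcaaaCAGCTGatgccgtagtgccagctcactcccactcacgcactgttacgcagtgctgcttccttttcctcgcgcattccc

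The signal of a region is the authors' peak height, and it was used only to describe and rank regions within a list. In the pooled list the 457 regions ran from 41.1 to 64.2 with a median of 54.9. In the region's matching entry of replicate 2 the lowest signal was 21.1, the median 25.9 and the highest 91.4. In replicate 3 the lowest was 24.0, the median 28.8 and the highest 98.4. The pooled value was close to the sum of the replicate values (median ratio 0.988), so pooled and replicate signals are on different scales. Just inside and just outside the rank limits the signals were 64.21 and 64.22 at the upper limit, and 41.03 on both sides of rank 5000. The nearest a region lay to a TSS was 506 bp, and the farthest among the regions dropped as promoters was 496 bp. The median distance to a TSS was 3215 bp and the largest 42716 bp.

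The regions had similar heights in the replicates but were not ordered alike, and neither is a measure of agreement. The choice by pooled rank and by a place high in each replicate list favours both. The signal was higher in replicate 3 in 315 of 457 regions (68.9%), with a median log2 difference of 0.17 (replicate 3 minus replicate 2). The SD of that difference was 0.35, or 1.28-fold. Over the regions, Pearson's r of the log2 replicate signals was 0.0921 and Spearman's rho was −0.0985, as a description: all points share the same 2 libraries, and the choice on pooled rank fixes the sum of each pair within narrow bounds. In a top list of each replicate as long as the thresholded list, 76 of the regions were found in replicate 2, 49 in replicate 3, 8 in both and 340 in neither. A q of 0.01 or less was deposited for 400 of the regions in the pooled list, for 298 in replicate 2 and for 192 in replicate 3. The summits of the replicates lay a median of 56 bp apart.

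Some of the matches were shared with a neighbouring pooled region, whose strength was not part of this count. In 46 regions a matching replicate summit lay nearer to another pooled summit, in 17 of them to a thresholded one. All members with a replicate signal above 45.2 in replicate 2 or 42.8 in replicate 3 were among these 46. An intronic region of CG5953 had signals of 85.8 in replicate 2 and 24.1 in replicate 3, against a pooled signal of 41.5, with a thresholded summit 206 bp away. An intronic region of Raf, the kinase below Ras, had 30.3 in replicate 2 and 70.6 in replicate 3, against 51.2 in the pooled list, with a thresholded summit 200 bp away. The region upstream of tara, at 948 bp, had 73.7 and 33.9 in replicates 2 and 3 and a thresholded summit 199 bp away. Of the Mnt region printed above, replicate 3 had 45.2 and replicate 2 had 23.7, with a thresholded summit at 202 bp. Of the genes described further on, a region each of aos, sty, da, Antp, chn, kirre, NetA, RpL41, CG3529, caps and Dif and 2 of sbb were also among the 46. Without the 46 regions, 411 remained, with an SD of the log2 difference of 0.32, Pearson's r of −0.159 and Spearman's rho of −0.138.

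**Figure D1:**
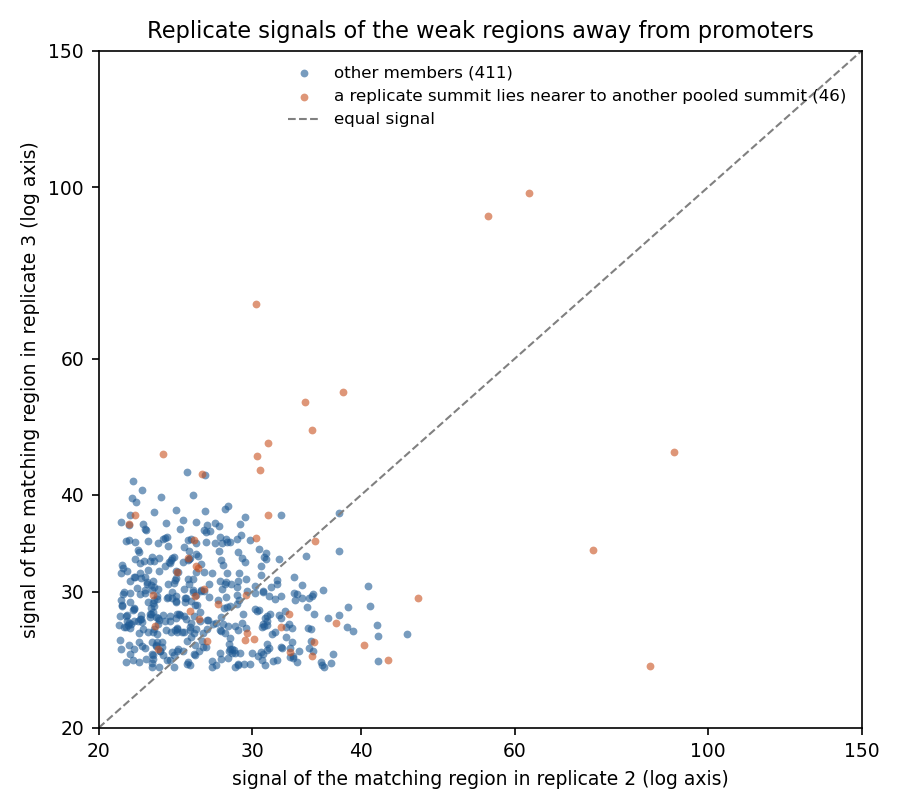
Signal of the matching region in replicate 2 (x axis, log scale) and replicate 3 (y axis, log scale) for the 457 weak distal regions, with a dashed line at equal signal. The 46 orange points, with a replicate summit nearer to another pooled summit, include all points above 45.2 in replicate 2 or 42.8 in replicate 3, and 315 of 457 points lie above the line. At rank 5000 the whole list stood at 23.93 in replicate 3 and 21.1 in replicate 2.

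CAGCTG was the E-box that marked the summits. In windows of 50 bp to either side, 55 of 457 summits (12%, 95% Wilson interval 9.36 to 15.3) held CAGCTG, against 17 (3.72%, 2.34 to 5.88) of equal windows centred 300 bp to one side, a ratio of 3.24. It was at the summit only in 54 regions and in the flank only in 16. The 2-sided exact McNemar test over regions gave p = 5.85e-06, and 0.000129 after Benjamini-Hochberg adjustment over the 22 motifs searched. This p measures the spread over regions of 1 pooled list, not over collections of embryos. For scale, 7.97% of all 30000 pooled regions and 4.24% of 1323188 windows that tile the genome held it.

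The 62 copies in the 55 windows lay close to the summit. Their median distance from it was 22 bp, and 39 of 62 lay within 25 bp. In windows of 51 bp the share was 6.35% at the summit and 5.25% and 3.72% at 50 bp to the right and left, and at 1000 bp it was 2.63% to the right and 1.09% to the left. The base next to the hexamer, read outward on both sides of all copies, was G in 40.3% and A in 30.6% of 124 positions, against 30.6% each of 36 positions at flank copies. Windows with CAGCTG had a median GC content of 51.5%, against 38.6% in those without.

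**Figure D2:**
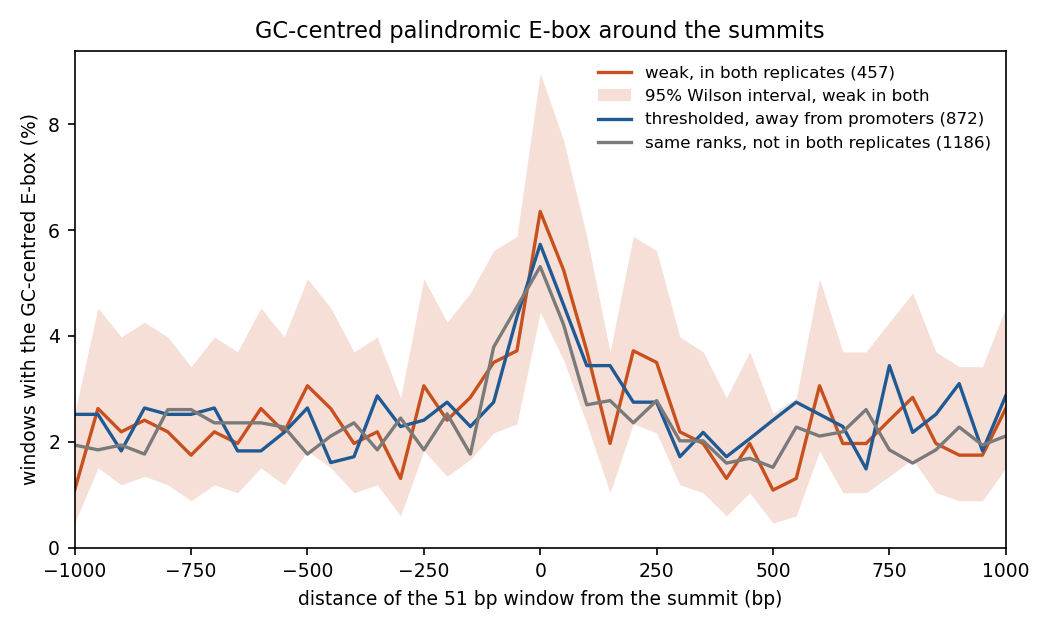
Share of 51 bp windows with the GC-centred E-box (y axis, %) by distance of the window from the summit (x axis, bp) for the weak distal regions with their 95% Wilson interval, thresholded regions away from promoters, and regions of the same ranks not in both replicate lists. The share for the weak distal regions is 6.35% at the summit, against 1.09% and 2.63% at 1000 bp on either side, and all 3 lines have their highest point at 0.

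No other motif passed the test at the summits, and an E-box of any form was common at the flanks too. Any CANNTG was in 236 of 457 summit windows (51.6%) and in 208 flank windows (45.5%), with an adjusted p of 0.586 in the exact McNemar test. The remaining 221 summit windows (48.4%) held no E-box. CACCTG, the form bound by Snail-family repressors and by some da dimers, was in 21 summit and 13 flank windows. The most frequent single form at both places was CAAATG, in 50 summit windows and 61 flank windows. TAATTA, the core of many homeodomain sites, was in fewer summit windows, 16 against 33 in flanks, with an exact p of 0.0186 and 0.205 after adjustment. All motifs were searched on both strands, CANNTG includes the 10 forms, and a match is letters in a window, not a bound site.

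The CAGCTG share did not set the weak distal regions apart from stronger or less reproducible regions. It was 12% in them, against 10.3% of the 872 thresholded regions away from promoters (difference 1.71 percentage points, 95% Newcombe interval −1.74 to 5.5). In the 1186 regions of the same ranks away from promoters that were not in both replicate lists it was 9.95% (difference 2.09, −1.15 to 5.75), and in the 463 at promoters 10.6% (difference 1.45, −2.67 to 5.59). It was higher than the 6.65% of the 4090 regions of ranks above 25000 away from promoters (difference 5.38, 2.59 to 8.77). The 1186 lay lower within the rank band, with a median pooled signal of 46.1, against 54.9 in the weak distal regions. Any CANNTG was in 51.6% of weak distal regions, against 43.9% of thresholded regions away from promoters (difference 7.72, 2.07 to 13.3). In the 1186 it was in 48.6% (difference 3.07, −2.31 to 8.43) and in the 463 at promoters in 46.2% (difference 5.42, −1.04 to 11.8). Both of these intervals include 0. In the 4090 it was in 45.5% (difference 6.16, with an interval above 0). TATCGATA, the motif of the promoter factors DREF and BEAF-32, was in 1 of the 457 (0.219%), against 4.75% of the 463 at promoters (difference −4.53, −6.88 to −2.65). This was not particular to the weak distal regions. Away from promoters it was in 0 of 872 thresholded regions, 2 of the 1186 (0.169%) and 5 of the 4090 (0.122%).

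Within the weak distal regions the CAGCTG share varied with annotation. It was 31.0% (13 of 42, 19.1 to 46.0) where the summit was in an exon or untranslated region (UTR), against 10.1% (42 of 415) in introns and intergenic DNA, a difference of 20.8 points (8.51 to 36.1). The 13 include the coding exons of toc and sba printed above and 1 of siz, an Arf exchange factor, and only 1 of the 42 flank windows held it. In the 10 coding-exon summits it was in 5 (50%, 23.7 to 76.3), against 4 of 12 (33.3%, 13.8 to 60.9) in thresholded regions away from promoters and 11 of 93 (11.8%, 6.73 to 19.9) in regions of the same ranks not in both replicate lists. Over all exons and UTRs the share was 31.0%, against 12.6% (11 of 87, 7.21 to 21.2) in thresholded regions away from promoters and 14% (27 of 193, 9.8 to 19.6) in the same ranks not in both replicate lists. Of intronic summits 29 of 289 had it and of intergenic ones 13 of 126. By pooled rank, which the choice of regions used, it was 10.9% in the 184 up to rank 2500, 10.2% in the 206 from there to 3500 and 20.9% in the 67 beyond, as a description. It was 9.86% where the TSS was beyond 2000 bp and 15.6% nearer (difference −5.75, −12.6 to 0.403), and the choice of regions also used TSS distance. On X it was 9.59%, against 12.5% on autosomes (difference −2.91, −9.01 to 6.47). Both intervals include 0. These splits were read with the values known and were not adjusted for their number.

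Most of the regions lay in introns. By annotation of the summit, 289 (63.2%, 58.7 to 67.5) were in introns, 126 (27.6%) intergenic, 10 (2.19%) in coding exons, 8 in 3′ UTRs, 5 in 5′ UTRs and 19 in other exons, such as those of non-coding genes. Of the bases of the 6 arms over 500 bp from a TSS, 45.0% are intron, 31.4% intergenic and 15.9% coding exon. The intron share was 63.2%, against 66.2% of thresholded regions away from promoters (difference −2.93, −8.39 to 2.43). In the same ranks not in both replicate lists it was 58.8% (difference 4.47, −0.826 to 9.61), and both intervals include 0. In ranks above 25000 it was 44.6% (difference 18.6, 13.9 to 23.2). The coding-exon share was 2.19%, against 7.84% in the same ranks not in both replicate lists (difference −5.65, −7.6 to −3.38) and 25.6% in ranks above 25000 (difference −23.4, −25.1 to −21.2). In thresholded regions away from promoters it was 1.38%. The regions not in both replicate lists also had a lower median pooled signal, 46.1 against 54.9. Signal and presence in both replicate lists were not told apart here. Intronic regions lay at a median of 0.326 of the length of their gene, and 202 of 293 region and gene pairs (68.9%, 63.4 to 74.0) were nearer to the 5′ than to the 3′ end. This was not particular to them: the share was 73.2% (69.5 to 76.6) for thresholded regions away from promoters and 69.3% (65.8 to 72.5) for the same ranks not in both replicate lists. Their host genes spanned a median of 28.1 kb, against 25.1 and 30.5 kb in those sets, and 179 of the 457 regions (39.2%) lay in an intron of a gene of 20 kb or more, against 39% and 37.2%.

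**Figure D3:**
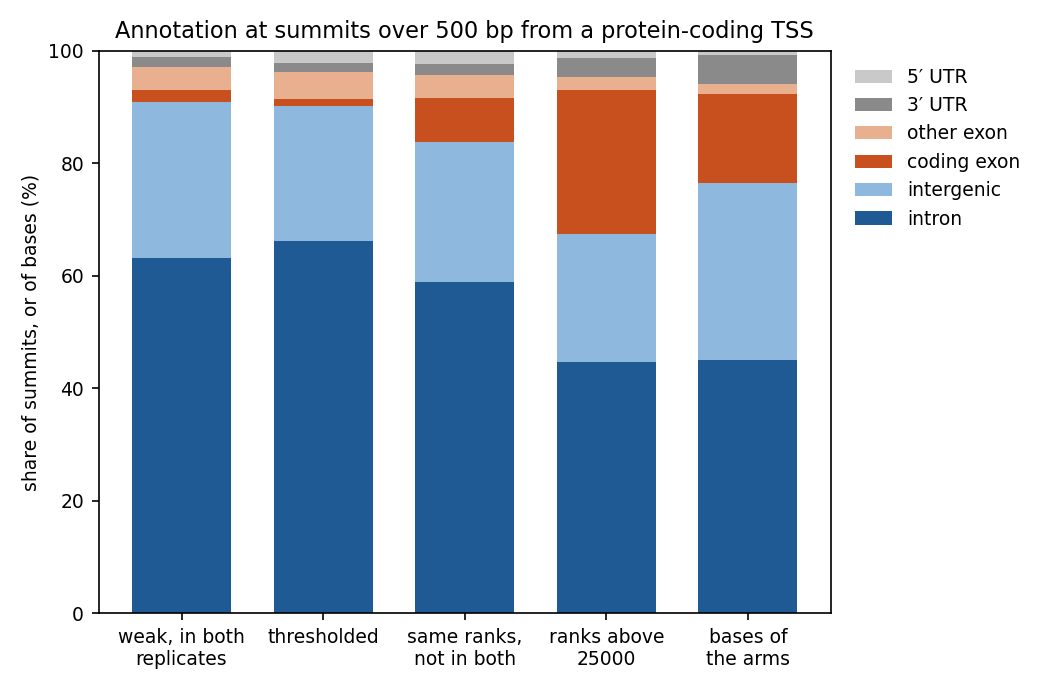
Stacked shares (y axis, %) of summits over 500 bp from a protein-coding TSS by annotation class, for the weak distal regions (left), 3 other sets of regions, and the bases of the 6 arms. Coding exons take 2.19% of the weak distal summits, against 7.84% of the same ranks not in both replicate lists, 25.6% of ranks above 25000 and 15.9% of the bases. Median pooled signal was 46.1 in the same ranks not in both replicate lists, against 54.9 in the weak distal regions.

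All large arms carried the regions at a similar density. There were 92 on 2L, 87 on 2R, 97 on 3L, 106 on 3R, 73 on X and 2 on chromosome 4, or 3.1 to 3.91 per Mb on the large arms and 1.48 on chromosome 4. The median distance to the next region of the set was 58.7 kb, and 16 lay within 1000 bp of another. Over the whole set, 104 (22.8%) had a thresholded summit within 2000 bp, against 16.7% of those not in both replicate lists (difference 6.06, 1.82 to 10.6). For 25 (5.47%) it was within 400 bp, against 1.6% (difference 3.87, 1.92 to 6.41), and these 25 regions overlapped a thresholded one. Of these 25, 17 were among the 46 regions with a shared match. Among the other 411, 78 (19.0%) had a thresholded summit within 2000 bp (difference 2.28, −1.86 to 6.83) and 8 (1.95%) within 400 bp (difference 0.344, −0.96 to 2.28), and both intervals include 0. The median distance was 8747 bp.

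Of the 457 regions, 30 lay within 500 bp of the start of a non-coding gene. No share for other regions was set beside this count, so it is a description only. Hsromega, which gives the nuclear heat-shock RNA of the omega speckles, had a summit 222 bp from a start, with signals of 39.1 in replicate 2, 26.6 in replicate 3 and 62.8 pooled. The region 24 bp from a start of iab8, a non-coding RNA of the bithorax complex, had 27.2 in replicate 2, 36.7 in replicate 3 and 47.7 pooled. Other starts included those of the small nuclear RNA gene snRNA:U2:34ABb at 174 bp and of 2 small nucleolar RNA genes. They also included the transfer RNA genes tRNA:Leu-CAA-2-2 at 426 bp and tRNA:iMet-CAT-1-3 at 370 bp, the latter beside the hng3 summit printed above. Names were chosen after their values were seen. No summit lay inside a transfer RNA gene or a ribosomal RNA gene, and 2 lay inside annotated transposable elements. These counts too have no share for other regions beside them and are a description only.

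A protein-coding gene was counted as holding a region when its span, extended by 1000 bp at both ends, took in a summit. By this rule 327 of 13945 genes (2.34%) held 1 or more. The share depended on length: 157 of 1013 genes of 20 kb or more (15.5%), 108 of 2471 of 5 to 20 kb (4.37%) and 62 of 10461 under 5 kb (0.593%). Of the 327 genes, 168 (51.4%) also held a thresholded region, against 16.1% of all genes. Among genes of 20 kb or more the same was true of 106 of 157 (67.5%), against 35.9% of all genes of that length. In all 340 regions (74.4%) lay in or near a gene and 117 lay beyond 1000 bp of every protein-coding gene, 44 genes held 2 or more, and 9 held 3 or more.

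Genes of the epidermal growth factor (EGF) receptor and Ras pathway held regions at 6 of 14 listed members, a count that depended on the match. This pathway passes a signal from ligands such as spi through the receptor and the kinase Raf to ETS transcription factors, and it acts at many steps of embryonic patterning, often beside proneural bHLH proteins. The 6 are 42.9% of the list (21.4 to 67.4), the highest share of the 20 lists, against the 2.34% of all genes and the 15.5% of long genes. It was 3 of 14 when summits had to match within 100 bp (Egfr, aop and pnt) and 4 of 14 (28.6%), with S, without the 46 shared matches, and in both cases the Notch list was higher. Of its 7 genes of 20 kb or more 5 held one. The median over these 6 genes of the highest signal was 56.1, against 55.9 over the 327 genes. They were Egfr, the receptor, aop, an ETS repressor, pnt, the ETS activator, aos, a secreted inhibitor, sty, an intracellular inhibitor, and S, needed for traffic of the ligand. The lists were drawn with earlier results of these data known, and a share of 1 list among 20 is a description.

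The 12 regions at these 6 genes ran from 43.6 to 64.1 in pooled signal, 10 were intronic, and 9 had the higher signal in replicate 3. Over all 457 regions, 63.2% were intronic and 68.9% had the higher signal in replicate 3, and no difference was tested. Egfr held 2, at 13.2 and 26.7 kb from its 5′ end. The first had 26.5 in replicate 2, 38.1 in replicate 3 and 64.1 pooled, and its nearest TSS was that of CG30286, a gene within the Egfr span, at 1208 bp. The second had 23.9, 35.3 and 57.8 in the same order. Egfr held no thresholded region, whereas the other 5 genes did. In aop the 3 regions had 29.5, 35.0 and 26.4 in replicate 2 and 37.4, 25.9 and 36.0 in replicate 3, with pooled signals of 63.1, 59.7 and 54.9, and they lay 1.02 kb inside, 0.81 kb upstream and 13.7 kb inside. In pnt the 4 regions had pooled signals of 55.2, 52.3, 48.0 and 43.6. Of these, 3 lay side by side at 11, 12 and 13.5 kb from the 5′ end, and the other at 45.3 kb.

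The inhibitors and S each held 1. The regions of aos and sty both had a matching replicate summit nearer to another pooled summit. That of aos, at 7.92 kb, had 29.4 in replicate 2, 26.0 in replicate 3 and 54.6 pooled. The region of sty lay just past its 3′ end, 24.1 kb from the 5′ end, with 25.3, 33.2 and 57.1. That of S, at 3.16 kb, had 25, 25.1 and 51.7 and lay between 2 thresholded regions. The other 8 genes of the list, spi, rho, kek1, vn, Ras85D, drk, Sos and ed, held none. Raf, which the list does not name, held 3 with pooled signals of 61.3, 54.1 and 51.2, the last of them the shared match above.

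**Figure D4:**
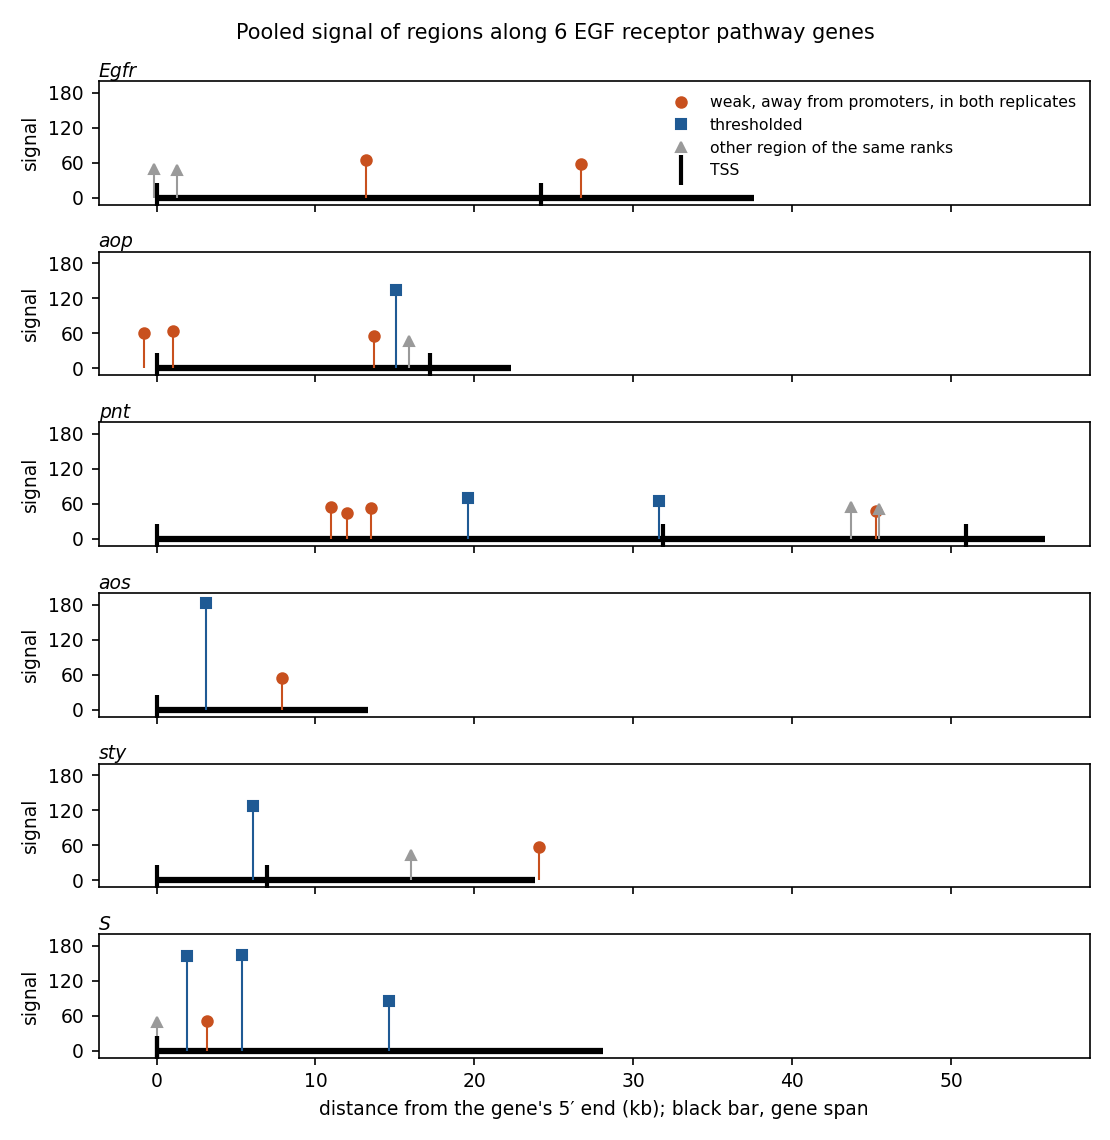
Pooled signal (y axis) of regions along 6 genes by distance from the gene's 5′ end (x axis, kb), with weak distal regions as circles, thresholded regions as squares, other regions of the same ranks as triangles, TSSs as ticks and the gene as a black bar. Egfr has 2 circles at 13.2 and 26.7 kb and no square, and pnt has 3 circles at 11 to 13.5 kb.

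None of the 12 regions held CAGCTG within 100 bp of the summit, against 84 of all 457. A count of 0 of 12 allows a share of up to 25%, by a limit of 3 counts that covers counting error only. Within 50 bp of the summit 6 of the 12 held another E-box, whereas 236 of all 457 held an E-box of any form. The pnt windows at 11, 13.5 and 45.3 kb and those of sty and aos are shown with their E-boxes in capitals, followed by the aop window at 1.02 kb, which held none:
pnt at 11 kb, chr3R:23335119-23335219: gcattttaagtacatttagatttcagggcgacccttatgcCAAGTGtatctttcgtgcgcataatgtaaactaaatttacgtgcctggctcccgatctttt
pnt at 13.5 kb, chr3R:23332618-23332718: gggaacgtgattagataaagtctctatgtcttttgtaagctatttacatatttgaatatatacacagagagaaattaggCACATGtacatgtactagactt
pnt at 45.3 kb, chr3R:23300802-23300902: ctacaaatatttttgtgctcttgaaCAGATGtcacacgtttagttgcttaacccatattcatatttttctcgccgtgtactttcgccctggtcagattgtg
sty, chr3L:3400737-3400837: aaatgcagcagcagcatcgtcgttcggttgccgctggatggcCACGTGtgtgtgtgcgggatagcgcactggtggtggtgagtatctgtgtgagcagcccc
aos, chr3L:16475679-16475779: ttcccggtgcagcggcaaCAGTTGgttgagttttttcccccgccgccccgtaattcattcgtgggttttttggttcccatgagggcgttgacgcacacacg
aop at 1.02 kb, chr2L:2177683-2177783: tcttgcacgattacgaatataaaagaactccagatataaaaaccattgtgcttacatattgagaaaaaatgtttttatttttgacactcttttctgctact

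The Hox and Notch lists came next. Of 8 Hox genes, which set segment identity, 3 held a region (37.5%, 13.7 to 69.4), and 6 of the 8 span 20 kb or more. Ubx held 2, with pooled signals of 54.7 and 50.1, at 31.5 and 30 kb from its 5′ end and 95917 and 94437 bp from a thresholded summit. Abd-B held 1 (29.0 in replicate 2, 36.6 in replicate 3, 60.5 pooled) and Antp 1, a shared match (23.4, 25.3 and 45.6). Of 17 genes of the Notch pathway 5 held a region (29.4%, 13.3 to 53.1), and the same 5 did without shared matches and with a match within 100 bp. They were mam, a coactivator (29.5, 32.8 and 63.8), numb, an inhibitor inherited by 1 daughter cell (32.8, 27.0 and 63.1), Delta, a ligand of the receptor (24.7, 31.8 and 57.8), neur, a ubiquitin ligase (22, 33.0 and 54.6), and the receptor N. All but Delta, whose intronic summit lay 81254 bp from a thresholded one, also held a thresholded region.

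Neural precursor and axon guidance genes held regions mainly in their long members. Of 24 neural precursor genes 4 held a region, numb and neur again, chn with 2 (61.9 and 51.8 pooled) and pros. Of 30 axon guidance and adhesion genes 7 did (23.3%, 11.8 to 40.9), all of them among the 25 that span 20 kb or more, which is 7 of 25 against the 15.5% of all long genes. Ptp10D, a receptor phosphatase, had 26.5 in replicate 2, 34.7 in replicate 3 and 63.3 pooled, unc-5, a netrin receptor, had 24.3, 33.1 and 62.2, and Ten-a, a teneurin, 31.0, 27.7 and 61.7. Ten-a's region was the farthest of all from a thresholded summit, at 281239 bp. By nearest TSS the count was 4 of 30. Of 22 ion channel and synapse genes, 19 of them of 20 kb or more, 1 held a region (4.55%, 0.807 to 21.8), Syn, which encodes synapsin (22, 31.3 and 52.5). The intervals of these lists overlap, and the difference was not tested.

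Most other tissue and pathway lists had 1 to 3 genes each that held a region. For scale, the share was 2.34% of all genes and 15.5% of genes of 20 kb or more. Mesoderm and muscle genes had 3 of 25, stumps (58.5 pooled, with the CAGCTG window printed above), kirre, an adhesion protein of myoblast fusion, with 2 (58.3 and 45.2), and Mef2, the muscle transcription factor, with 2 (57.3 and 54.6). Wnt, Dpp and Hedgehog genes had 3 of 25, among them ptc, the Hedgehog receptor, with 2 (60.5 and 56.7) and Dad (57.0). Ecdysone response genes had 3 of 19 (15.8%), with 2 in the nuclear receptor gene Eip75B (52.1 and 49.9) and 1 in ftz-f1 (53.8). Hippo and growth control genes had 3 of 17 (17.6%), with the kinase wts at 63.2 and kibra at 61.6. The gut, hemocyte and GATA list had 1 of 15 (6.67%), the GATA cofactor ush, with 3 (56.0, 53.1 and 48.0). Glia, trachea and epidermis lists had 1 each (9.09%, 9.09% and 8.33%), pnt, trh (55.2) and crb (52.0). Chromatin regulators had 2 of 19 (10.5%), lola with 3 and psq with 1. Of 88 ribosomal protein genes 2 held a region (2.27%), RpS26 and RpL41. None of 18 segmentation or 179 chemosensory receptor genes did, which allows shares of up to 16.7% and 1.68%. Genes of these lists are short, with median spans of 1.33 kb (ribosomal protein), 2.94 kb (segmentation) and 1.69 kb (chemosensory receptor). Of all genes under 5 kb 0.593% held a region, and both limits lie above that share. By nearest TSS, 2 intergenic regions belonged to the segmentation gene hry, a bHLH repressor, at 8021 and 20853 bp (57.6 and 61.8 pooled).

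**Figure D5:**
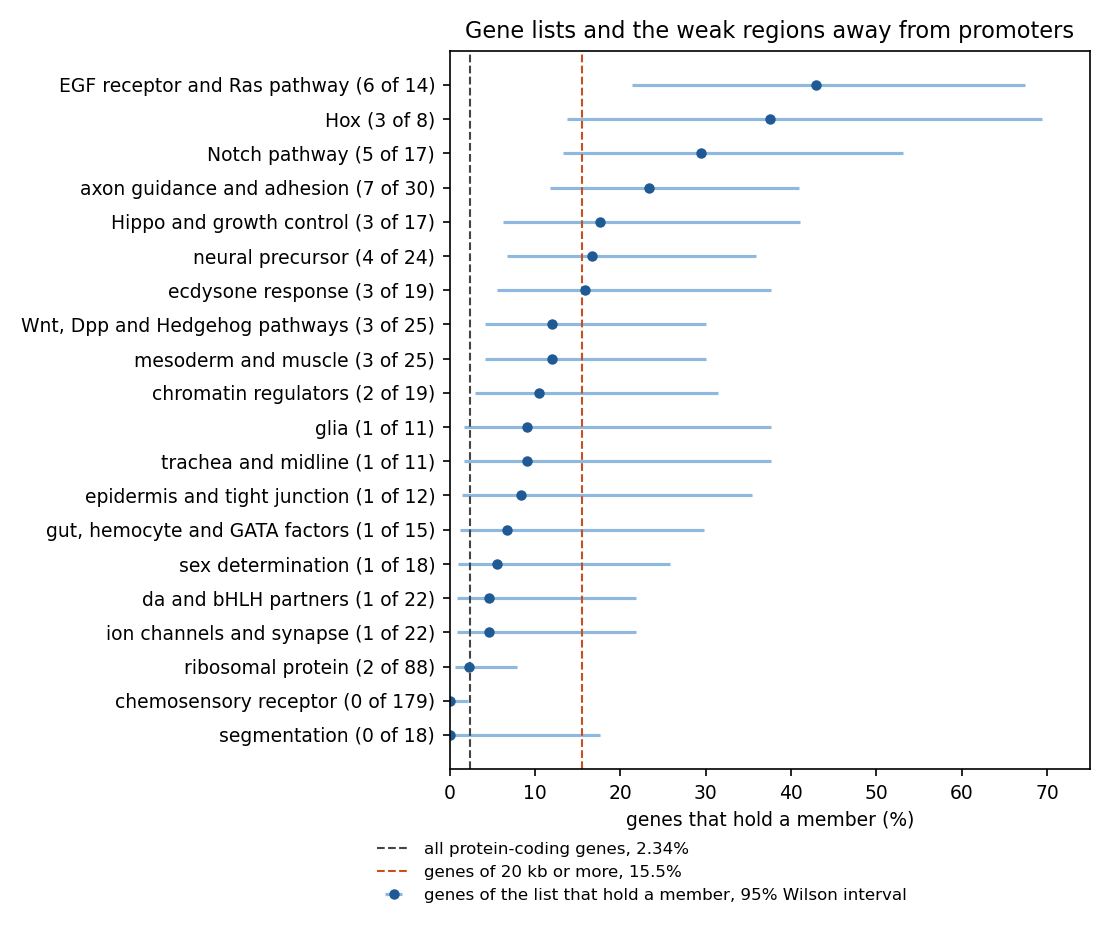
Share of the genes of each of 20 lists that hold a weak distal region (x axis, %, with 95% Wilson intervals), with dashed lines at 2.34% for all protein-coding genes and 15.5% for genes of 20 kb or more. The EGF receptor and Ras pathway is highest at 42.9% (6 of 14), and segmentation and chemosensory receptor genes are at 0. Those 2 lists have median spans of 2.94 and 1.69 kb, and 0.593% of all genes under 5 kb hold a region.

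The gene of the bound factor was the only member of the da and bHLH partner list, 1 of 22, to hold a region, and no gene of the list did by gene span alone or without shared matches. Its summit lay 877 bp upstream of the 5′ end of da, in a coding exon of the neighbouring mRpS7, with 25.9 in replicate 2, 32.4 in replicate 3 and 50.6 pooled, and 776 bp from a thresholded summit, and a matching replicate summit lay nearer to another pooled one. The line carries a da transgene, and its part in the signal at da was not tested. By nearest TSS, emc and ase had 1 each, beyond the 1000 bp of the counting rule. The region 4092 bp upstream of emc, the HLH inhibitor of da, lay in an intron of hng3 and had 32.0 in replicate 2, 24.5 in replicate 3 and 55.9 pooled. The region 3549 bp upstream of ase, a gene of the achaete-scute complex, had 27.8, 32.5 and 46.8. The proneural genes ac, sc, l(1)sc and ato, and Sxl and sens, held none. The da window held CAAGTG, in capitals:
da upstream, chr2L:10387178-10387278: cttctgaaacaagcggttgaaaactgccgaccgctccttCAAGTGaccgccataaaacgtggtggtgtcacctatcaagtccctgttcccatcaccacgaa

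Genes with the most regions were pnt with 4, then aop, tara, siz, Raf, lola, ush, sbb and bun with 3 each. Of these, lola encodes BTB zinc finger proteins of axon guidance, sbb the corepressor scribbler and bun a protein of the TSC-22 family. All but CG3529, the 10th, with 2 regions in 3.92 kb, span over 20 kb. siz held its 3 (58.1, 53.4 and 42.3 pooled) with no thresholded region, whereas ush held 8 thresholded regions beside its 3 and Raf 7. The CG3529 pair shared its replicate 3 summit, at 37.7 in both. Such sharing between 2 regions of the set concerned 10 of the 457, and 12 overlapped another.

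The 10 regions of highest pooled signal, 63.8 to 64.2, had their nearest TSS at apt, CG30286, caps, kel, Girdin, CG3473, CG5910, CG18371, Klp98A and unc-119. Signals at apt were 41.8 in replicate 2 and 24.4 in replicate 3, those at Girdin, an actin-binding protein, 29.9 and 35.0, and those at Klp98A, a kinesin, 32.4 and 29.6. Of the 10, only the window at CG5910 held CAGCTG within 50 bp of the summit. The 5 of lowest signal, 41.1 to 41.5, were nearest to CG5953, Ip6k, scyl, Dif and CG33764, and of these the Ip6k window held it.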

How the data were processed

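Per the labels, sheared chromatin of da-GFP embryos was precipitated with an anti-GFP antibody in 2 biological replicates. For each replicate and for pooled reads, a list of 30000 regions was deposited, together with 1941 regions that passed a filter on irreproducible discovery rate. Calling used a control, per the deposited notes, which is not analysed here. Not given in the sources used here are the caller, the aligner and the threshold. The signal is the peak height the authors deposited, and the −log10 q is also as the authors deposited it. No column of per-sample values was left unused in the lists read.

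Regions were ranked by signal and chosen by the rule stated at the start of the results. The gene annotation was that of Ensembl release 115 (BDGP6.54), and the sequence was RefSeq Release 6, whose coordinates dm6 uses. Windows of 101 bp were searched for 22 motifs, and each summit was paired with a window 300 bp to 1 side, set by whether its rank was odd or even. Pairs were compared with an exact McNemar test and Benjamini-Hochberg adjustment at 0.05, which was first tested on simulated data. Shares have 95% Wilson intervals and differences 95% Newcombe intervals, which cover counting error over regions or genes only. Regions that share a neighbourhood or a replicate summit are not independent.

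Named were the bHLH genes da and emc, the proneural genes ato, sc, l(1)sc and ac, and also ase, Sxl and sens. Further names were the genes nearest to the 10 highest and 5 lowest regions, the 10 with most regions, up to 3 per list, and those with most CAGCTG. All members of the EGF list were added, and a gene outside this rule was chosen after its values were seen. All names of the 20 lists were found in the annotation, older names under their current symbol. The regions, gene lists and motifs were chosen with earlier results of these data known. Alternatives covered the match and promoter distances, list lengths, replicates, windows, flanks and gene assignment. Python 3.11.15, numpy 2.4.6, pandas 2.3.3, scipy 1.17.1 and matplotlib 3.10.9 were used.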

Additional observations from a re-analysis of the deposited data

How the results depend on the processing

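The CAGCTG ratio of summits to flanks stayed above 1 in all 17 alternatives, from 2.15 to 4.14, with adjusted p-values of the exact McNemar test from 1.91e-07 to 0.575. It kept its side of the threshold in 16 of them. The exception was the match to the top 3500 of each replicate list, where the ratio was 2.83, the adjusted p 0.575, 0 motifs passed and only 173 regions and 135 genes remained. A match to replicate 3 alone or replicate 2 alone gave 966 to 1008 regions, 631 to 670 genes that hold one and 1 to 2 motifs past the threshold. A promoter distance of 2000 bp left 284 regions and 168 genes, and 19.0% of them had a thresholded summit within 2000 bp. The same share was 19.0% without the 46 regions whose replicate summit is nearer to another pooled summit, an alternative chosen after seeing the data. A second motif passed (2 in all) in 4 alternatives: TAATTA, lower at summits, with promoter distances of 1000 and 2000 bp, and CANNTG with the flank on the other side and without replicate 3. The cause was not tested. The EGF list's count of 6 genes was 3 when summits had to match within 100 bp and 4 without the 46 regions, and in both cases it was below the Notch list in share. The intron share and the replicate difference stayed within their interval or SD in every alternative run. The CAGCTG difference from the same ranks, 2.09 points, stayed within its interval, which includes 0, but did not keep its sign. It was −0.0903 points with a promoter distance of 2000 bp and −0.123 with the top 3500 of each replicate list. The dm3 lists gave a count of regions found in both replicates within 1.5 times that of dm6. No paired analysis was possible because there was only 1 group. The depth is unknown, and with 12 regions at EGF genes or 10 in coding exons the intervals are wide.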
